A study of Mus musculus with 5 samples.

Results

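Meg3, Rian, Mirg and Malat1 are 4 long noncoding RNAs of mouse hippocampus, followed here through 4 deposited lists of regions from an RNA immunoprecipitation of CYFIP1. Counted were all listed regions that the deposited annotation places on 1 of the 4 genes (inside it, over its start or end, or around it), which gave 28 of 16828 regions. The 4 genes are among 4727 genes with a region in any list. Meg3 had 9 regions, Rian 11, Mirg 6 and Malat1 2.

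RNA was co-precipitated from hippocampal lysates of C57BL/6 mice and sequenced. The libraries were anti-HA from knock-in mice (KI HA, n = 2), mouse control IgG from the knock-in mice with the same numbers (KI IgG, n = 2) and anti-HA from a wild-type mouse (WT HA, n = 1). The labels call the mice knock-in and name no allele, the design text names Cyfip1, and age and sex are not given in the sources used here. Each list sets 1 KI HA library against 1 control and gives the reads of both in each region, and the 2 lists over wild type share 1 control library, so their spread holds no variation of that control.

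Long noncoding RNAs are transcripts that act without being translated. Meg3, Rian and Mirg are read from the maternal copy of the imprinted Dlk1-Dio3 domain and are strongly expressed in brain. Rian is the host of box C/D small nucleolar RNAs (snoRNAs), which guide chemical marks on other RNAs, and Mirg is the host of a large cluster of microRNAs. Malat1 is an abundant nuclear RNA of nuclear speckles. CYFIP1 is a cytoplasmic protein that binds FMRP, the translational regulator lost in fragile X syndrome, and sits in the WAVE complex, which drives branching of actin.

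Meg3 lies at chr12:109541001-109571726, Rian at chr12:109603940-109661716 and Mirg at chr12:109729764-109749460, all on the plus strand of mm10. From the start of Meg3 to the end of Mirg the 3 genes span 208.46 kb, with 32.2 kb between Meg3 and Rian and 68.0 kb between Rian and Mirg. Malat1 lies at chr19:5795690-5802672 on the minus strand. The annotation calls Meg3, Mirg and Malat1 lincRNAs and Rian a processed transcript, with 8, 14, 1 and 19 separate exon blocks in the order Meg3, Mirg, Malat1, Rian.

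The regions on Rian and Mirg hold 32 microRNA hairpins that were matched in the RefSeq table, 17 in regions counted for Rian and 15 in regions counted for Mirg, and those on Meg3 and Malat1 hold 0. Of the 17, only 3 lie inside Rian itself, because its regions reach back over the microRNAs upstream of its start. Of the 15, 13 lie inside Mirg and were covered in all 4 lists. The hairpins give 59 mature entries with 56 distinct seeds, the bases 2 to 8 that pair with targets. The mature sequences below, from RefSeq on GRCm38.p6, show what these regions encode. Capitals mark the seed. The first 4 lie upstream of Rian, opposite Rtl1, a retrotransposon-derived protein-coding gene on the other strand.
mmu-miR-431-5p: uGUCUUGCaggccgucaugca
mmu-miR-433-3p: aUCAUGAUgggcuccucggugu
mmu-miR-127-3p: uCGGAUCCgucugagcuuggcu
mmu-miR-136-5p: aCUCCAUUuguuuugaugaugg
The next 3 lie inside Rian, where miR-341 and miR-1188 were covered in all 4 lists and miR-370 in the 2 lists of mouse 2.
mmu-miR-341-5p: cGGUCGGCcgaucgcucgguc
mmu-miR-1188-5p: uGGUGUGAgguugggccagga
mmu-miR-370-3p: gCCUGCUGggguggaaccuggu
The following come from Mirg regions. They include miR-134, known for limiting dendritic spine size through Limk1.
mmu-miR-382-5p: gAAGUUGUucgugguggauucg
mmu-miR-134-5p: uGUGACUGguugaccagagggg
mmu-miR-485-3p: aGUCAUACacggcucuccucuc
mmu-miR-453: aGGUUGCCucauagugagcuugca
mmu-miR-496a-5p: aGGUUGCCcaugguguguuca
mmu-miR-409-5p: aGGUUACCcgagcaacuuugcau
mmu-miR-410-5p: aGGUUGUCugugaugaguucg
mmu-miR-487b-5p: uGGUUAUCccuguccucuucg
The seed of miR-453 and miR-496a-5p is the same. The letters GGUU open the seed of 5 of 26 mature entries from Mirg regions and of 0 of 33 from Rian regions. That motif was chosen after the letters were seen and is a description only. In the upstream region, miR-3070-3p and miR-3070-2-3p also share a seed.
mmu-miR-3070-3p: uGGUGCUAccgucagggguaga
mmu-miR-3070-2-3p: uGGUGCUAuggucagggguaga
Mature microRNAs were not measured, since the lists count reads over whole regions of up to 48.0 kb.

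The regions inside Rian hold 7 of the 13 annotated snoRNA genes that lie in Rian. The box C letters TGATGA began within the first 12 bases of 5 of the 7, and the box D letters CTGA stood within the last 14 bases of 4, on the strand of the gene only. Both boxes stood in 3, which are printed as DNA from the GENCODE M21 transcripts with both boxes in capitals.
AF357425: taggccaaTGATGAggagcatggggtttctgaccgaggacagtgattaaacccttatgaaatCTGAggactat
Gm24895: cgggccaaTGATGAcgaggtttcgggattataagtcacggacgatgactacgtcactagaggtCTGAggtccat
DQ267100: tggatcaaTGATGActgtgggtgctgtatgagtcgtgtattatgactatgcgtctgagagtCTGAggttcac
They lie at chr12:109636012-109636084, chr12:109646129-109646202 and chr12:109649617-109649688, on the plus strand of GRCm38.

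Values below are reads, or folds. For a fold, KI HA and control reads were each totalled per gene and list, and their quotient was divided by the median quotient of the list's regions with at least 20 reads, so that 1 is the middle of the list. These medians were 2.89 and 0.947 in the IgG lists of mice 1 and 2, and 1.41 and 1.75 in the wild-type lists. Intervals are 95% exact (Clopper-Pearson) and cover counting error only, since PCR copies are no independent molecules. The lists hold 64055 to 166760 KI HA reads and 25747 to 181527 control reads, and reads outside called regions were not used, so library depth is unknown. Cyfip1 mRNA, as a check of the precipitation, held 6101 and 6186 KI HA reads against 67 and 115 KI IgG reads and 431 and 416 WT HA reads in mice 1 and 2. Of hippocampal neuron markers 3 of 9 had a region in any list (Map2, Neurod6 and Prox1), as did 2 of 5 for astrocytes, 2 of 5 for oligodendrocytes, 1 of 5 for microglia, 0 of 3 for endothelium and 0 of 3 for choroid plexus.

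The comparison with IgG asked what came down with anti-HA beyond nonspecific capture. Here Rian and Mirg lay below the middle of the list in both knock-in mice. Rian, the snoRNA host, held 119 KI HA against 114 KI IgG reads in mouse 1 and 173 KI HA against 529 KI IgG reads in mouse 2. Mirg, the microRNA host, held 29 KI HA against 22 KI IgG reads in mouse 1 and 23 KI HA against 66 KI IgG reads in mouse 2. In mouse 1 the raw reads of both RNAs were thus slightly higher in KI HA, and in mouse 2 they were far lower. The list medians differed between the mice in the same direction, so that the folds came close.

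Rian was 0.361-fold in mouse 1 (interval 0.277 to 0.470) and 0.345-fold in mouse 2 (interval 0.289 to 0.411), a mean log2 fold of -1.50 ± 0.04 (SD, n = 2). Mirg was 0.455-fold (interval 0.253 to 0.832) and 0.368-fold (interval 0.219 to 0.600), a mean log2 fold of -1.29 ± 0.22 (SD, n = 2). All 4 of these intervals lie below 1. The small SD of Rian comes after division by the list medians, since its raw log2 ratios had an SD of 1.18. The mouse 1 value rests on a single region that lies mostly outside Rian, and with regions inside the gene only mouse 2 alone remains (log2 fold -1.52). Meg3, a maternally expressed RNA with growth-restraining roles in cell culture, held 5 KI HA against 5 KI IgG reads in mouse 1 and 7 KI HA against 11 KI IgG reads in mouse 2. It was 0.345-fold (interval 0.0795 to 1.50) and 0.672-fold (interval 0.221 to 1.90), so neither mouse placed it on a side of 1. Malat1 had no region over IgG in either mouse, and its IgG level was not measured. Those lists hold 27 and 24 regions on chromosome 19.

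**Figure D1:**
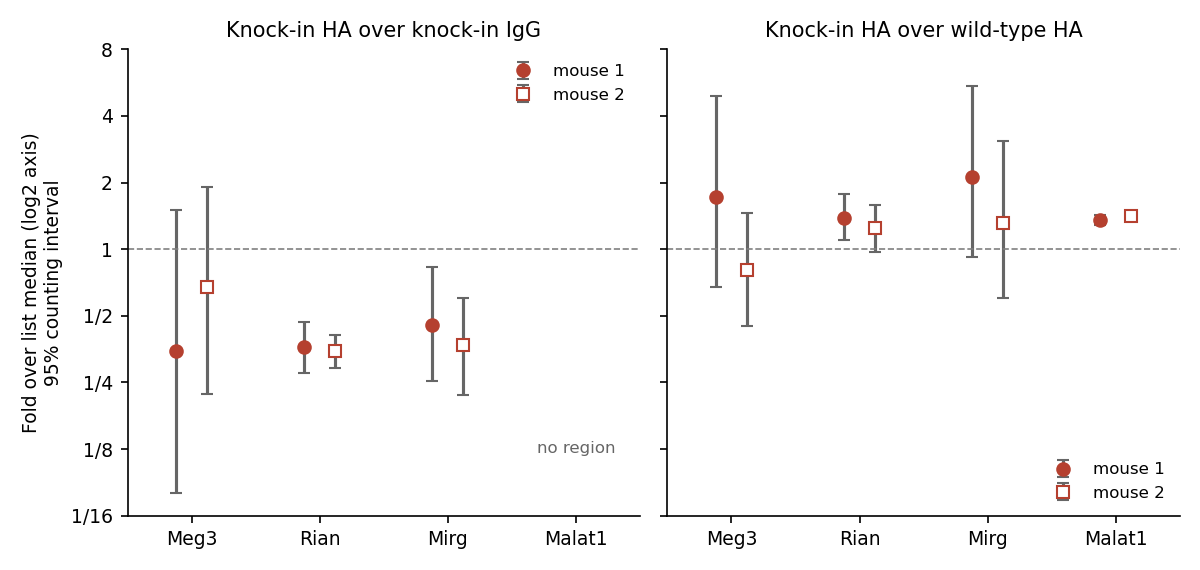
Fold of KI HA over KI IgG (left) and over WT HA (right) for each gene, on a log2 axis with the list median at 1; circles are mouse 1, squares mouse 2, and bars 95% counting intervals. Rian and Mirg sit between 0.345 and 0.455 over IgG and above 1 over wild type, Malat1 is at 1.36 and 1.41 over wild type, and the intervals of Meg3 include 1 in each panel.

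Among the 392 genes with at least 20 reads in both lists over IgG, the folds of both mice were at most 0.5 for 15.8%, and Rian and Mirg were among these. The 392 include many genes, such as Mir341, Mir134 and Rtl1, that lie on Rian or Mirg regions in 1 or both mice and repeat their reads there. These too were at most 0.5-fold in both mice and make up a large part of the 15.8%. The Rian region of mouse 1 carries 18 other genes and the Mirg region of mouse 2 carries 14. The 15.8% and the gene shares, limma counts and limma adjusted p-values below were not recomputed without such genes, so they do not count separate regions. The adjustment thus ranked genes that repeat the reads of Rian and Mirg as separate tests, also where these members passed. In mouse 1, 5.74% of 1097 genes had a lower fold than Rian, and in mouse 2 4.73% of 719. For Mirg these shares were 17.3% and 5.70%. limma over the 392 genes called 21 genes higher in KI HA (5.36%) and 15 lower (3.83%) at a Benjamini-Hochberg adjusted p of 0.05, and called neither member. Rian had a limma log2 difference of -1.50 (SE 0.37, adjusted p = 0.0781), and Mirg one of -1.28 (SE 0.29, adjusted p = 0.0662), each lower in 2 of 2 mice. The median gene of that limma fit was at -0.38, and both members lay below that median. With the pooled ratio of each list as the scale, the mean fold was 0.210 for Rian and 0.243 for Mirg, and limma called 20 genes higher and 172 lower, both members included (adjusted p = 0.0117 and 0.00911). limma over the 180 genes with at least 50 reads also called both (adjusted p = 0.0446 and 0.0396).

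A replicate block for mouse number moved both members past the limit in limma. The adjusted p was 0.0253 for Rian (SE 0.17) and 0.0311 for Mirg (SE 0.18), and in that limma fit 26 genes were higher (6.63%) and 73 lower (18.6%). Meg3, with 10 and 18 reads, was under the limit of 20 and entered only the limma fit with no minimum of reads, where it did not pass (log2 difference -1.04, adjusted p = 0.395 over 799 genes). The labels give the knock-in mice numbers and no further detail, so these p-values may measure technical spread only.

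**Figure D2:**
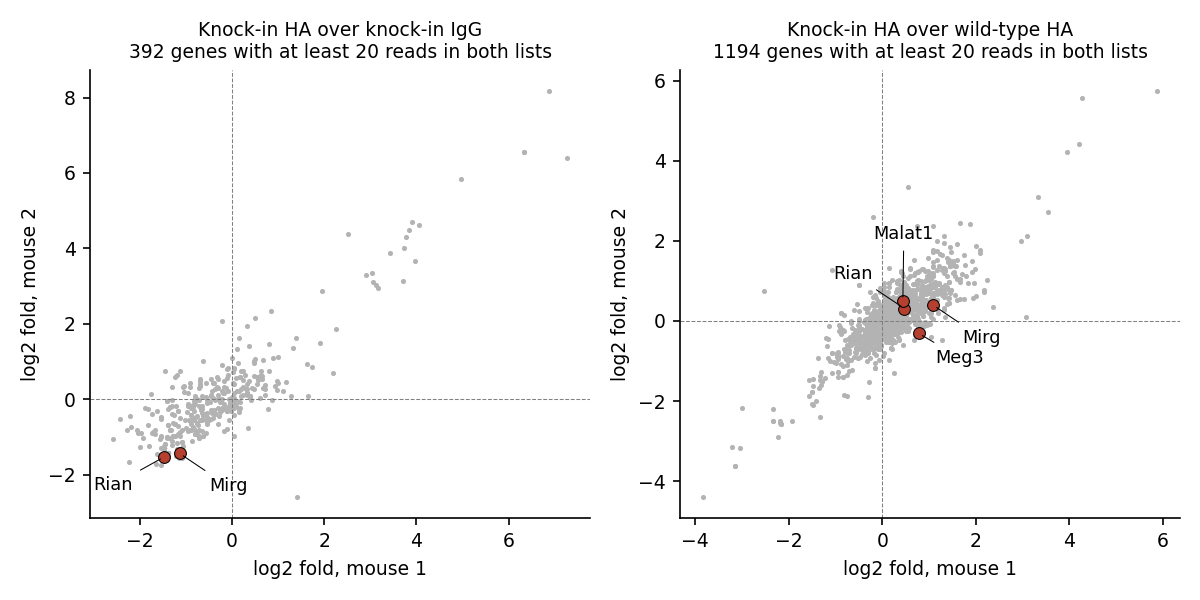
log2 fold of each gene with at least 20 reads in both lists of a contrast, mouse 1 on the horizontal and mouse 2 on the vertical axis, over IgG (left, 392 genes) and over wild type (right, 1194 genes); red points are the members. Rian and Mirg lie low on both axes over IgG, with other genes lower than each, and the members over wild type lie within the main cloud. Both axes of the right panel share the WT HA library.

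Chromosome 12, which holds the 3 genes, had lower ratios as a whole in the lists over IgG. Its median ratio was 1.64 in mouse 1 and 0.714 in mouse 2, against 2.89 and 0.947 for all chromosomes. Relative to chromosome 12 alone, Rian was 0.638-fold and 0.458-fold and Mirg 0.806-fold and 0.488-fold. Of the chromosome 12 genes with at least 20 reads, 13.3% of 255 in mouse 1 and 6.55% of 336 in mouse 2 had a lower fold than Rian, and for Mirg 43.1% and 7.44% did. The values of both RNAs still lay below 1, with Mirg in mouse 1 the nearest to it at 0.806-fold. Counting intervals were not computed on this scale. The 0.806-fold rests on 29 KI HA and 22 KI IgG reads and does not place Mirg in mouse 1 on a side of 1. The chromosome 12 gene shares also count genes that lie on Rian and Mirg regions and repeat their reads. Whether the chromosome had a part in their low folds was not tested.

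Single regions were also compared. Over IgG, more KI HA than KI IgG reads were found in 4 of 10 member regions, against 84.4% of all regions and 67.8% of those on chromosome 12. These shares pool both mice and are not matched for mouse. Mice 1 and 2 gave 4 and 6 member regions, but 4191 and 1920 regions in all, and the list medians were 2.89 and 0.947. Rian had such an excess in 1 of 4 regions, Meg3 in 1 of 3 and Mirg in 2 of 3. In mouse 1 a single Rian region of 45.36 kb was listed (chr12:109572721-109618080), with 119 KI HA against 114 KI IgG reads. Only 31.2% of its length is on Rian and 1.06% is exon of Rian. It also covers Rtl1 and the upstream microRNA genes, and since no strand is recorded, reads of the 2 strands cannot be told apart.

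In mouse 2 the Rian regions over IgG lay almost wholly on the gene and were split in 3. The region over its start (chr12:109602801-109621800) held 65 KI HA against 202 KI IgG reads. The region in its middle (chr12:109627001-109646200), which holds 6 snoRNA genes, had 96 KI HA against 294 KI IgG reads. The fully exonic region downstream (chr12:109646401-109649800), which holds the snoRNA DQ267100 printed above, had 12 KI HA against 33 KI IgG reads. All 3 were near each other, at 0.340-fold, 0.345-fold and 0.384-fold. The region of mouse 2 upstream of Rian (chr12:109573801-109599400), placed on Rtl1 and microRNA genes and not counted for Rian, held 50 KI HA against 129 KI IgG reads.

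Mirg had a pair of regions in mouse 1, with overlapping intervals. The long region over its start and microRNA cluster (chr12:109727281-109744320) held 22 KI HA against 20 KI IgG reads, which is 0.380-fold (interval 0.198 to 0.734). A short exonic region at its 3′ end (chr12:109748161-109749360) held 7 KI HA against 2 KI IgG reads, which is 1.21-fold (interval 0.230 to 11.9). These few reads do not place the 3′ end on a side of 1. In mouse 2 a single region was listed (chr12:109730401-109747600), with 23 KI HA against 66 KI IgG reads.

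**Figure D3:**
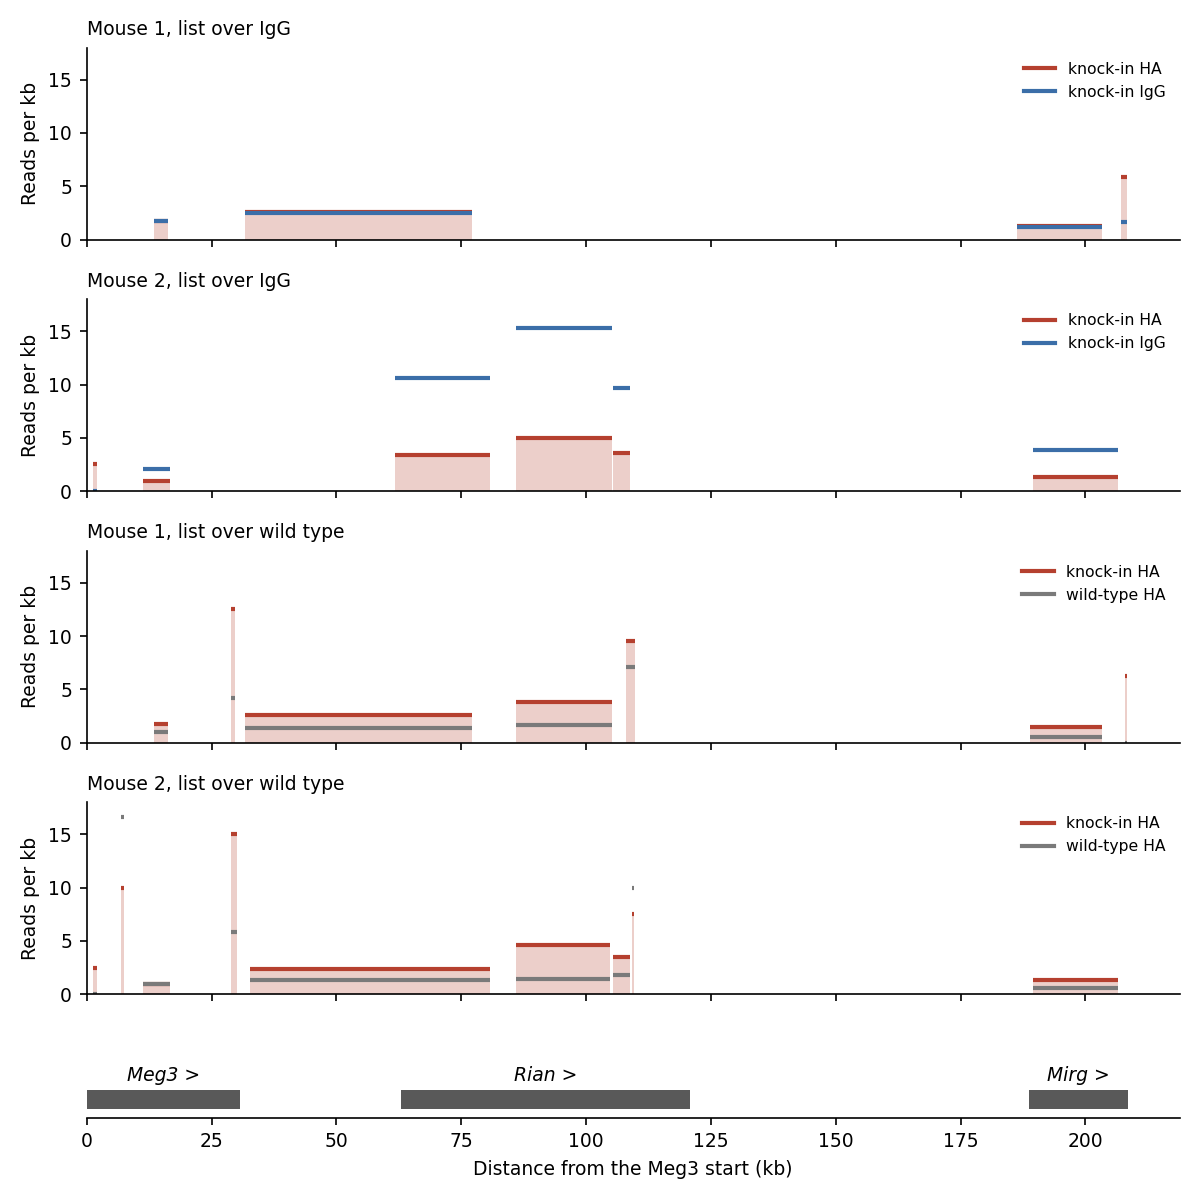
Reads per kb of each region on Meg3, Rian and Mirg against distance from the Meg3 start in kb, for the 4 lists; red is KI HA, blue KI IgG and grey WT HA, and boxes below are the genes, all read to the right. KI IgG lies above KI HA along Rian and Mirg in mouse 2 and near it on the long regions of mouse 1, while KI HA lies above WT HA over most of Rian and Mirg in both mice.

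The comparison with anti-HA from a wild-type mouse asked what came down only with the tagged protein. Against this control Rian, Mirg and Malat1 lay above the middle of the list in both mice, by modest amounts. Rian held 208 KI HA against 106 WT HA reads in mouse 1 and 217 KI HA against 100 WT HA reads in mouse 2. That is 1.39-fold (interval 1.09 to 1.77) and 1.24-fold (interval 0.974 to 1.59), a mean log2 fold of 0.39 ± 0.12 (SD, n = 2). Of the KI HA reads, 119 and 115 come from long regions over the Rian start, with 31.2% and 37.2% of their length on Rian. Those regions also cover Rtl1 and upstream microRNA genes, so these reads may not all be of Rian. Mirg held 24 KI HA against 8 WT HA reads and then 23 against 10, which is 2.12-fold (interval 0.923 to 5.47) and 1.31-fold (interval 0.602 to 3.09). Only the interval of Rian in mouse 1 among these 4 leaves out 1.

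Among the 1194 genes with at least 20 reads in both lists over wild type, 51.8% lay above 1 in both mice, so that Rian and Mirg shared their side with most genes. Of genes with at least 20 reads, 67.9% in mouse 1 and 60.2% in mouse 2 had a lower fold than Rian, and 88.4% and 64.6% a lower fold than Mirg. Meg3 held 17 KI HA against 7 WT HA reads in mouse 1 and 31 KI HA against 22 WT HA reads in mouse 2. Its folds of 1.72 (interval 0.678 to 4.91) and 0.805 (interval 0.451 to 1.46) stood on opposite sides of 1. The log2 folds averaged 0.23 ± 0.77 (SD, n = 2), which is less than their spread. On the pooled scale the mean folds over wild type were higher throughout, at 2.09 for Meg3, 2.33 for Rian, 2.97 for Mirg and 2.46 for Malat1. A single region on Gm26917 weighs heavily in that scale. It held 45588 of 154408 KI HA and 79099 of 181527 WT HA reads of the mouse 1 list. In the mouse 2 list it held 48838 of 166760 and 79099 of 180957. Pooled folds without this region were not computed.

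Along Meg3 the regions over wild type were of 2 kinds. At the 3′ end, regions that are fully exonic held 12 KI HA against 4 WT HA reads in mouse 1 (chr12:109569841-109570800) and 18 KI HA against 7 WT HA reads in mouse 2 (chr12:109570001-109571200). These are 2.12-fold (interval 0.644 to 9.04) and 1.47-fold (interval 0.586 to 4.16), and the annotation also places them on the antisense gene Gm26906. Regions inside the gene without exon held 5 KI HA against 3 WT HA reads in mouse 1, and 6 against 10 and 5 against 5 in mouse 2. An exonic region near the start held 2 KI HA against 0 WT HA reads in mouse 2. The 3′ regions had 12.5 and 15.0 KI HA reads per kb, the highest of Meg3 in each mouse, and they had no counterpart in the lists over IgG.

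Along Rian over wild type, the middle region with the snoRNA genes stood highest in both mice. It held 73 KI HA against 31 WT HA reads in mouse 1 (chr12:109626961-109646160), which is 1.67-fold (interval 1.08 to 2.63). In mouse 2 it held 87 KI HA against 26 WT HA reads (chr12:109627001-109645800), which is 1.91-fold (interval 1.22 to 3.09). Both intervals lie above 1. The long region over the start held 119 KI HA against 63 WT HA reads in mouse 1, at 1.34-fold (interval 0.978 to 1.85), and 115 KI HA against 64 WT HA reads in mouse 2, at 1.03-fold (interval 0.750 to 1.42). Downstream, 16 KI HA against 12 WT HA reads in mouse 1 gave 0.944-fold (interval 0.419 to 2.19), and mouse 2 had 12 KI HA against 6 WT HA reads and 3 against 4 in separate regions. The intervals of the 3 kinds of region overlap within each mouse, and differences between them were not tested.

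More KI HA than WT HA reads were found in 15 of 18 member regions, against 88.2% of all regions and 87.8% of those on chromosome 12, so the members' share was near that of the lists. By gene it was 4 of 6 for Meg3, 6 of 7 for Rian, 3 of 3 for Mirg and 2 of 2 for Malat1.

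Some regions had the same ends in both lists of a mouse, which gives the reads of 3 libraries over 1 stretch. The long Rian region of mouse 1 held 119 reads in KI HA, 114 in KI IgG and 63 in WT HA. In mouse 2 the downstream Rian region held 12, 33 and 6 reads and the Mirg region 23, 66 and 10, in the order KI HA, KI IgG and WT HA. For Meg3 the counts were 5, 5 and 3 in mouse 1 and 5, 11 and 5 in mouse 2, with a further exonic region near its start at 2, 0 and 0.

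In the 5 of these stretches that had wild-type reads, 2 in mouse 1 and 3 in mouse 2, the IgG library held more reads than the wild-type HA library. The same held for 22.6% of such regions in mouse 1 (41.3% on chromosome 12) and for 77.3% in mouse 2 (86.0% on chromosome 12), among those with at least 20 reads. Their ratio was 1.81 for Rian in mouse 1 (interval 1.32 to 2.50), against a median of 0.571 over 778 regions and 0.889 over 201 regions of chromosome 12. In mouse 2 it was 5.50 for Rian (interval 2.28 to 16.1) and 6.60 for Mirg (interval 3.37 to 14.4), against a median of 2.19 over 644 regions and 2.75 over 279 on chromosome 12. The interval of Rian in mouse 1 and that of Mirg lie above the medians of chromosome 12, and that of Rian in mouse 2 holds it. For Meg3 the ratios of 1.67 (interval 0.324 to 10.7) and 2.20 (interval 0.705 to 8.08) held the medians. These ratios are of raw reads of libraries of unknown depth, and only the medians give them a scale. Both controls are set against the same KI HA library, so the folds over IgG and over wild type are not independent.

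**Figure D4:**
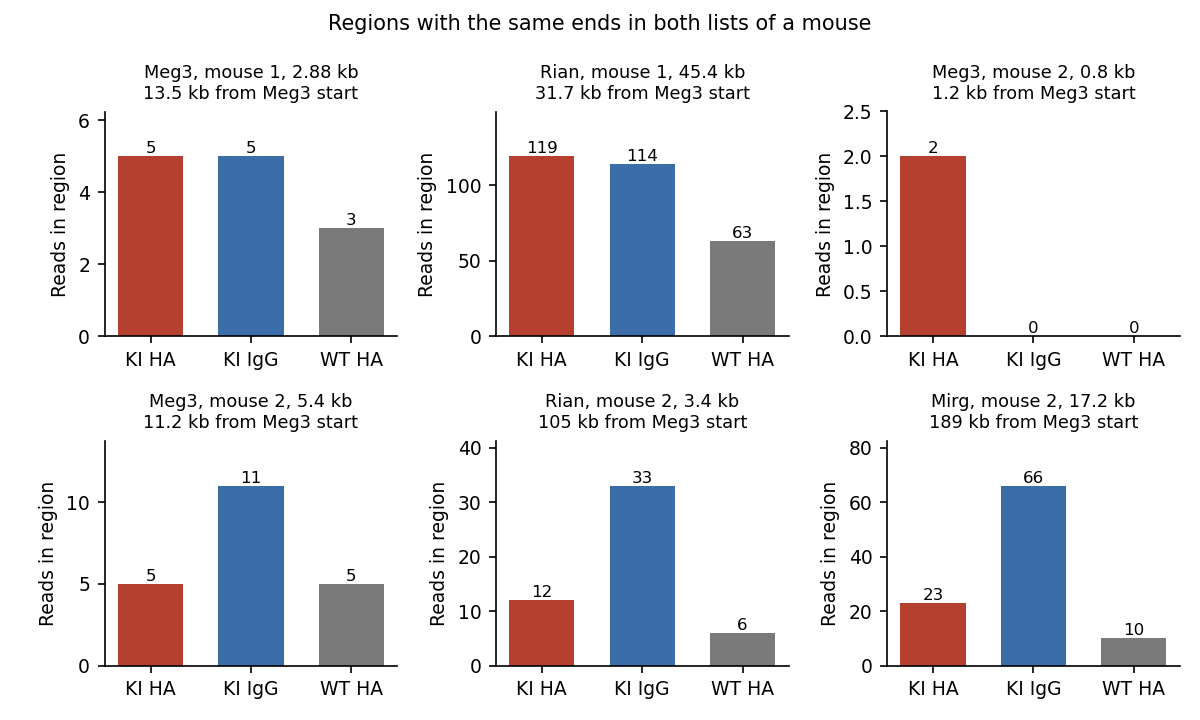
Reads in KI HA (red), KI IgG (blue) and WT HA (grey) in the 6 member regions with the same ends in both lists of a mouse, 1 panel each, on linear axes that start at 0 and differ between panels. KI IgG is highest in the Rian, Mirg and longer Meg3 regions of mouse 2, and level with KI HA in mouse 1.

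Where regions of 1 list lie inside a region of the other list of the same mouse, the KI HA reads of the remaining stretch follow by subtraction. In mouse 2 the last 0.4 kb of the middle Rian region (chr12:109645801-109646200) held 9 KI HA reads, or 22.5 reads per kb, against 4.63 reads per kb in the rest of that region. That stretch holds all but the last bases of the snoRNA Gm24895, printed above. Between the microRNA regions upstream of Rian and the Rian start, 3.4 kb (chr12:109599401-109602800) held 0 KI HA reads. In mouse 1 the stretches left around the Mirg start and near its 3′ end held 1 and 4 KI HA reads, or 0.379 and 5.56 per kb. The ends of these stretches are set by the called regions, and both lists have different controls. No control reads or folds were thus obtained, and a local peak was not tested. Over all lists the inner regions never summed to more than the outer one in 320 such cases.

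Malat1 was by far the most abundant of the 4. Its single region (chr19:5796001-5802600) had the same ends in both lists over wild type, covered 94.5% of the gene and was fully exonic, and the annotation also places it on Gm20417, Gm27694 and Gm37376. It held 4115 KI HA reads in mouse 1 and 5288 in mouse 2, against 2146 WT HA reads. It ranked 6 by KI HA reads among 5355 and 5362 regions and made up 2.67% and 3.17% of the KI HA reads of its lists, against 1.18% and 1.19% of the WT HA reads. Per length it had 623 and 801 KI HA reads per kb against 325 WT HA reads per kb, while no region of Meg3, Rian or Mirg exceeded 15.0 KI HA reads per kb.

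The folds of Malat1 were 1.36 in mouse 1 (interval 1.29 to 1.43) and 1.41 in mouse 2 (interval 1.34 to 1.48), a mean log2 fold of 0.47 ± 0.04 (SD, n = 2). Of genes with at least 20 reads, 66.7% and 70.3% had a lower fold, so that Malat1 was in the upper part of the lists and far from their top. Over the 68 regions with the same ends in both lists and at least 20 reads, limma called 8 higher (11.8%) and 24 lower (35.3%) in KI HA. Malat1 did not pass there, with a limma log2 difference of 0.47 (SE 0.30, adjusted p = 0.248), higher in 2 of 2 mice. On the pooled scale, in which the Gm26917 region weighs heavily, limma called 29 regions higher and 15 lower. Malat1 was among the higher at 1.30 (limma adjusted p = 0.0150). In both limma fits the single WT HA library has no spread of its own and was assumed to vary like the KI HA pair, so these calls do not test a difference between knock-in and wild-type mice. On simulated data the fit on list medians found 41.2% of 17 changed regions. At Malat1 the ratio of KI HA reads of mouse 2 to mouse 1 was 1.29, against 1.06 summed over 192 other regions with the same ends. In the 70 of those with at least 20 reads, single ratios ran from 0.4 to 3.2, a range that holds the value of Malat1. No other region of chromosome 19 was listed over wild type, so no value relative to its chromosome could be given.

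Per the authors' deposited table, 20 of the 28 member regions had an adjusted p below 0.05, against 77.3% of all regions. Over IgG these were 4 of 4 in mouse 1 and 3 of 6 in mouse 2, against 64.6% and 87.3%, and over wild type 6 of 8 and 7 of 10, against 82.3% and 78.8%. The authors' deposited table gives the 3 Rian regions of mouse 2 over IgG adjusted p-values of 0.0848, 0.406 and 0.349. It gives Malat1 2.56e-196 in mouse 1. The empirical false discovery rate in the authors' deposited table was below 10% for 7 of the 28, against 39.9% of all regions. For some regions these values go with more control than KI HA reads, as for Mirg in mouse 2 over IgG at an adjusted p of 0.0187 in the authors' deposited table.

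The neighbours of the 3 RNAs in the Dlk1-Dio3 domain were read for comparison. Of the 7 listed, Begain, Wdr25, Dlk1, Rtl1, Dio3, Ppp2r5c and Dync1h1, 6 had a region in any list. With at least 20 reads, 4 of 4 were below 1 over IgG in mouse 1 and 4 of 4 in mouse 2, with medians of 0.526-fold and 0.684-fold against 0.839-fold and 0.822-fold for all genes. Of genes not typed as long noncoding, 60.4% and 64.3% were below 1 there. Over wild type 2 of 4 and 3 of 4 neighbours were below 1, with medians of 1.00 and 0.894 beside 1.15 and 1.10 for all genes. Rtl1, among the 4 neighbours counted, shares its region with Rian in 3 of the lists, so these counts and medians partly repeat the reads of Rian. In mouse 2 over IgG, from a region not counted for Rian, Rtl1 was 0.409-fold (interval 0.289 to 0.572). Begain, a postsynaptic protein gene, held 22 KI HA against 11 KI IgG reads and then 37 against 60, which is 0.691-fold (interval 0.321 to 1.58) and 0.651-fold (interval 0.420 to 0.998). Ppp2r5c, a phosphatase subunit gene, was 0.345-fold (interval 0.216 to 0.553) and 0.716-fold (interval 0.509 to 1.002). The intervals of Begain in mouse 1 and of Ppp2r5c in mouse 2 thus reach past 1. Dync1h1, the dynein heavy chain, had folds of 0.721 and 0.948 against IgG in mice 1 and 2. Against wild type it was 0.360-fold (interval 0.301 to 0.430) and 0.366-fold (interval 0.310 to 0.430), below the middle of those lists. Dlk1, the paternally expressed neighbour, held 6 KI HA against 0 KI IgG reads and 6 against 1 WT HA read in mouse 1 only, and Dio3 held 2 against 0 and 2 against 1.

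Of 37 other noncoding RNAs listed for comparison, 15 had a region in any list. With at least 20 reads, 3 of 4 and 4 of 5 of them lay below 1 over IgG in mice 1 and 2 and 3 of 6 and 2 of 5 did over wild type. Of genes not typed as long noncoding, 60.4% and 64.3% lay below 1 over IgG and 37.5% and 38.9% over wild type. Their median folds were 0.582 and 0.498 against IgG, and 1.06 and 1.11 against wild type, beside 0.839 and 0.822, and 1.15 and 1.10, for all genes. Snhg11, a neuronal snoRNA host, held 468 KI HA against 1004 KI IgG reads in mouse 2, at 0.492-fold (interval 0.440 to 0.550). Firre, a nuclear X-linked RNA, held 38 KI HA against 44 KI IgG reads in mouse 1, at 0.298-fold (interval 0.188 to 0.471), and was 1.14-fold over wild type in mouse 2 (interval 0.720 to 1.85). The 2 Firre values cover different lengths, 34.6 kb and 68.6 kb. Snhg14, the snoRNA host of the Prader-Willi domain, stood in mouse 2 at 0.775-fold over IgG (interval 0.628 to 0.955). Over wild type it was 1.27-fold (interval 1.09 to 1.49) in mouse 1 and 2.03-fold (interval 1.45 to 2.89) in mouse 2. These sum 13 regions of 125.8 kb and 3 regions of 0.6 kb, so they are not folds of the same stretch.

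Further noncoding RNAs of that list had other values. 2900097C17Rik was 1.79-fold (interval 1.39 to 2.33) and 5.08-fold (interval 3.96 to 6.61) over IgG. Rmrp, the RNA of a mitochondrial and nucleolar RNase, stood in mouse 2 at 0.498-fold over IgG (interval 0.373 to 0.660) and 0.472-fold and 0.571-fold over wild type. Gm26917, whose region carries ribosomal RNA reads, held 45588 and 48838 KI HA against 79099 WT HA reads. Over genes with at least 20 reads that the annotation types as long noncoding, the median folds were 0.790 and 0.778 against IgG and 1.21 and 1.07 against wild type, beside 0.845, 0.827, 1.15 and 1.10 for other genes.

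The genes most like Rian and Mirg over the 4 lists were sought among 296 genes with at least 20 reads in every list and no region shared with a member, by Euclidean distance between their log2 folds. Nearest to Rian were Rbm25 (distance 0.215), which encodes a splicing factor, Pxdn (0.487), the gene of peroxidasin, and Eml5 (0.608), all on chromosome 12. The median distance from Rian to the 296 genes was 2.06. Rbm25 held 29 KI HA against 31 KI IgG reads in mouse 1 and 39 against 114 in mouse 2, and 29 against 14 and 42 against 18 WT HA reads. Nearest to Mirg were Eml5 (0.510) and then Rpl37 and Snord72 on chromosome 15, which share their reads (0.533), and the median distance from Mirg was 1.99. Meg3 and Malat1 had under 20 reads in at least 1 list and were left out.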

How the data were processed

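Per the labels' protocols, hippocampal lysates were incubated with anti-HA or control IgG, bound to Protein G beads, and libraries were sequenced single-end with 50 cycles. TopHat and TopHat2 and the builds GRCm38 and mm10 are named in the submitters' processing notes. Per the file headers, rtracklayer 1.28.9 wrote the lists. For the region calls, no program is given in the sources used here. The deposited lists hold other values per region, namely reads of the KI HA and the control library as the authors counted them, unscaled, and the authors' p-values.

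Reads were summed per gene and list. A control of 0 reads was set to a floor of 3. limma 3.58.1 in R 4.3.3 was run on log2(reads + 0.5), with Benjamini-Hochberg adjustment over all genes or regions tested. Over IgG the control reads were multiplied by the list median, and over wild type the KI HA reads were divided by it. Python 3.11.15 with scipy 1.17.1 did the rest. The 4 gene names matched GENCODE M21 at the files' coordinates. On simulated data limma over genes found 98.0% of 98 changed genes, with 2 unchanged genes called. The planted changes there, and in the simulated regions, were larger than the members' limma differences on list medians. Simulated counts were independent with no mouse effect, so these shares do not give the power for the members. KI HA and KI IgG libraries carry the same mouse numbers and the authors' lists pair them, and across 392 genes the deviations of HA and IgG from their group means had a correlation of 0.685, part of which comes from summing both over the same regions. The replicate block is therefore given beside the fit without it.

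Named were the 4 members, genes that share their regions, the 3 nearest profiles per member, up to 6 genes with most reads from the locus and noncoding RNA lists, and Cyfip1. The members and lists were chosen with earlier results of these data known. Alternatives were other scales, read minimums, region filters, offsets, the block and leaving out each library.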

Additional observations from a re-analysis of the deposited data

How the results depend on the processing

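Of 89 alternative values, 55 kept their direction and call or stayed within the spread. Part of these 55 was fixed in advance. With 2 mice, a fold without a mouse always lies within the SD of the mean, so only a change of direction could be seen. Malat1 without a KI HA library was counted as the same with no test. On the pooled scale the log2 folds over IgG were -1.81 for Meg3, -2.25 for Rian and -2.04 for Mirg, and those over wild type were 1.06, 1.22, 1.57 and 1.30 for Meg3, Rian, Mirg and Malat1. The chromosome 12 median gave -0.89 for Rian and -0.67 for Mirg over IgG. Regions with at least 50 reads as the scale gave -1.93 and -1.72 over IgG, and 0.53 for Rian and 0.60 for Malat1 over wild type. Regions inside the gene only gave 0.62 for Rian over wild type and -0.58 for Mirg over IgG, and -1.52 for Rian over IgG from mouse 2 alone. Without regions that also lie on another gene, Mirg over IgG turned to 0.27 from 7 KI HA and 2 KI IgG reads, Rian over wild type to -1.22 from 3 KI HA and 4 WT HA reads and Meg3 over wild type to -0.39; that filter leaves no Rian region over IgG and no Malat1 region. With only regions at an adjusted p below 0.05 in the authors' deposited table, Meg3 over wild type turned to -0.041. The cause was not tested beyond the fewer regions summed.

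Leaving out a mouse gave log2 folds over IgG of -1.53 to -0.57 for Meg3, -1.53 to -1.47 for Rian and -1.44 to -1.13 for Mirg. Over wild type they were -0.31 to 0.78 for Meg3, 0.31 to 0.47 for Rian, 0.39 to 1.09 for Mirg and 0.44 to 0.49 for Malat1. Of member regions with at least 20 reads, 33.3% of 6 had more KI HA than control reads over IgG and 100% of 10 over wild type, against 71.3% and 79.8% of all such regions. These shares pool both mice and are not matched for mouse.

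limma over genes called 36 genes without the replicate block and 99 with it (21 higher and 15 lower, against 26 and 73). On the pooled scale it called 192 (20 higher and 172 lower), where the median gene moved to -1.13, and with no minimum of reads 4. Leaving out a library gave 0 to 40, with 0 when either KI IgG library was left out (75 and 110 at an unadjusted limma p of 0.05). Rian at a log2 difference of -1.50 and Mirg at -1.28 passed with the replicate block and with at least 50 reads (limma adjusted p = 0.0446 and 0.0396), and at -2.25 and -2.03 on the pooled scale (limma adjusted p = 0.0117 and 0.00911). With no minimum the limma adjusted p of Rian and Mirg was 0.333, and that of Meg3 0.395. All these fits kept the genes that repeat the reads of Rian and Mirg, and adjusted p-values without those genes were not computed. Without a library the log2 differences were -1.80 to -1.20 for Rian and -1.45 to -1.12 for Mirg. The lone library was assumed to vary like the others.

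limma over regions called 8 higher and 24 lower, 59 with no minimum of reads (34 higher and 25 lower), and 29 higher and 15 lower on the pooled scale, where Malat1 was at 1.30 (limma adjusted p = 0.0150, with a single WT HA library). With 1 KI HA library left out Malat1 was at 0.44 to 0.49, with no test. Of 108 regions identical in both lists over IgG, 0 lie on a member, so that fit gave no value. Low read numbers limit Meg3, Mirg and single short regions.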
